A study of Mus musculus with 2 samples.

Results

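The genes described here are 10 genes of the NRF2 pathway and of antioxidant defence, out of 55536 genes measured in the nucleoplasm of mouse macrophages. They were chosen by symbol, not by level, and each symbol matched 1 gene: Nfe2l2, Keap1, Nqo1, Gclm, Gclc, Txnrd1, Srxn1, Slc7a11, Prdx1 and Cat. Bone marrow-derived macrophages of the inbred strain C57BL/6J were exposed to Lipid A, the part of bacterial lipopolysaccharide sensed by Toll-like receptor 4, at 100 ng/ml for 12 h. They were then kept without it for 12 h and met it again at 100 ng/ml for 30 min. Nucleoplasmic RNA was depleted of ribosomal RNA and sequenced in 2 libraries of this 1 condition, which the labels number as biological replicates. The labels record neither age nor sex of the mice. No unstimulated or once-stimulated cells were analysed here, so there is no comparison between conditions and no test. What follows gives levels, transcript makeup and the differences between the replicates.

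NRF2, the protein of Nfe2l2, is a transcription factor that turns on genes for glutathione synthesis, thioredoxin reduction and quinone detoxification. At rest it is held by KEAP1, an adaptor of a Cullin 3 ubiquitin ligase, and degraded. Oxidants and electrophiles modify cysteines of KEAP1 and let NRF2 accumulate. The pathway is thus controlled mainly at the protein, which RNA does not show. In macrophages the pathway is known for limiting oxidative damage and for restraining inflammatory cytokine genes.

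The libraries held 20675294 gene counts in replicate 2 and 23845991 in replicate 1, of which the 10 genes took 23383 and 18084. Levels are given as TPM, which is normalised for transcript length and for the sum over all RNAs of a library, from the alignment-based gene table unless the read-based table is named. Over nuclear genes that code for protein, the median log2 ratio of TPM, replicate 2 over replicate 1, was 0.27, a shift of 1.21-fold. Differences between the replicates are therefore given on TMM-scaled counts, where that median is 0.03. Mitochondrial mRNAs took 6.85% of gene counts in replicate 2 and 2.81% in replicate 1, and library building started from 500 ng in replicate 2 and 1 µg in replicate 1. Both libraries had all 10 macrophage markers at 10 TPM or more, with a summed level of 3633 TPM in replicate 2 and 2166 TPM in replicate 1. Of 37 markers in 7 lists for T and NK cells, B cells, neutrophils, dendritic cells, erythroid cells, fibroblasts and endothelium, 3 reached 1 TPM in both libraries and 9 were listed at 0 in both. The summed level of each of these lists was 0.03 to 3.28 TPM in replicate 2 and 0.02 to 2.03 TPM in replicate 1, except for the endothelial list at 19.7 and 24.96 TPM, where Vwf and Kdr stood highest.

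The 10 genes spanned a wide range of levels. The median over them was 15.2 TPM in replicate 2 and 7.75 TPM in replicate 1, beside 3.94 and 3.08 TPM over all protein-coding genes listed above 0 in that library. In both libraries, 9 of the 10 genes reached 1 TPM, 4 reached 10 TPM and 1 reached 100 TPM. Over all 22028 protein-coding genes these shares were 41.9%, 15.6% and 1.2%. By the read-based values, these levels were reached by 9, 3 and 0 of the 10 genes, beside 40.4%, 10% and 0.617%. By mean level the order was Nfe2l2, Prdx1, Txnrd1, Cat, Keap1, Srxn1, Slc7a11, Gclm, Gclc and Nqo1. The values of both libraries lay apart for 2 pairs of neighbours in this order, Prdx1 above Txnrd1 and Gclc above Nqo1. For the other 7 pairs the higher gene in its lower library did not exceed the lower gene in its higher library, and Keap1 stood below Srxn1 and Slc7a11 in replicate 2 but above Cat in replicate 1. The read-based table gave the same order of means.

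**Figure D1:**
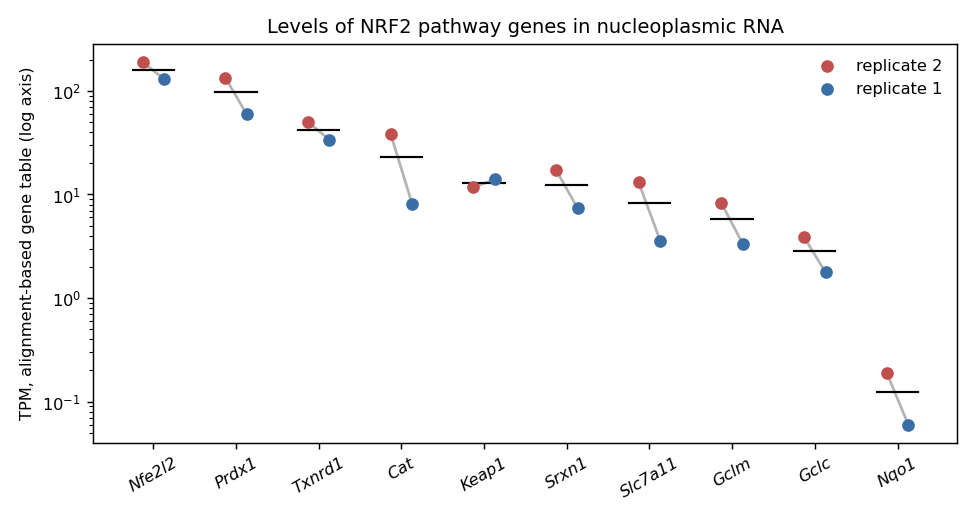
TPM of the 10 genes on a log axis, ordered by mean level, with replicate 2 as the left point, replicate 1 as the right point and a black bar at the mean of both. Nfe2l2 is at the top with 189.5 and 129.96 TPM, Nqo1 is at the bottom with 0.19 and 0.06 TPM, and Keap1 is the gene whose right point is the higher.

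The pair at the head of the pathway differed widely in level. Nfe2l2 (mm10 chromosome 2, 75675513 to 75704641, with all further gene coordinates on the same build) stood at 189.5 TPM in replicate 2 and 129.96 TPM in replicate 1, a mean of 159.7 ± 42.1 (SD, n = 2), above 98.8% of protein-coding genes listed above 0. Keap1 (chromosome 9, 21229730 to 21239361), which encodes its inhibitor, stood at 11.7 TPM in replicate 2 and 13.99 TPM in replicate 1, a mean of 12.8 ± 1.63 (SD, n = 2). Over all transcripts, Nfe2l2 RNA thus exceeded Keap1 RNA 16.2-fold in replicate 2 and 9.29-fold in replicate 1, per length. Coding transcripts alone differed less. The coding Nfe2l2-201 stood at 92.2 TPM in replicate 2 and 60.1 TPM in replicate 1, and Keap1 was mostly coding (97.0% and 86.6% of TPM). The read-based table gave 130.5 and 61.0 TPM for Nfe2l2 and 9.41 and 9.25 TPM for Keap1. In bulk RNA, fewer cells of a type and less RNA per cell cannot be told apart.

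Much of the Nfe2l2 signal was assigned to a transcript annotated as coding for no protein. Whether those reads came from it or from unspliced Nfe2l2 RNA in the nucleoplasm was not tested. The annotation has 2 transcripts of this gene. The coding Nfe2l2-201 of 2475 bases held 48.7% of the gene's TPM in replicate 2 and 46.3% in replicate 1. The processed transcript Nfe2l2-202 of 1447 bases held 51.3% and 53.7%. The read-based table gave it 52.7% and 55.2%. Of the expected counts, which are not normalised for length, Nfe2l2-202 held the smaller part, 36.5% in replicate 2 and 38.6% in replicate 1. It ends its first exon at the same base as Nfe2l2-201 and then joins an exon that lies inside the first intron, so that 1321 of its bases are in no coding transcript of the gene. The sequences at the end of that shared exon are shown because they are what separates the 2 transcripts. They are given on the minus strand of mm10 from GENCODE M21, with 30 bases of the shared exon in lower case, up to chromosome 2 base 75704364, and the next exon in capitals. That exon begins at base 75679429 in Nfe2l2-201 and at base 75692372 in Nfe2l2-202.
Nfe2l2-201: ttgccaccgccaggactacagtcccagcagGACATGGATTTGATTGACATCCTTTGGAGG
Nfe2l2-202: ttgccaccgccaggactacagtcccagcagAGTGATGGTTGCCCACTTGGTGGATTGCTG

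Keap1 was assigned mostly to coding transcripts. These held 97.0% of its TPM in replicate 2 and 86.6% in replicate 1, spread mainly over Keap1-201, Keap1-205 and Keap1-202, which differ in their first exons. Keap1-201 led in replicate 2 with 44.3% and Keap1-205 in replicate 1 with 34.5%. The read-based table instead put Keap1-203, a processed transcript of 317 bases, first with 26.8% and 48.5%, on 21.5 and 55.0 estimated counts. Keap1 shares 510 exon bases with Gm16754, a gene on the opposite strand that had 28 counts in replicate 2 and 85 in replicate 1. The strand setting was not stated, so reads of both genes cannot be told apart there.

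The cystine and glutathione genes were low to moderate. Slc7a11 (chromosome 3, 49892526 to 50443614) encodes the light chain of the antiporter that imports cystine in exchange for glutamate. It stood at 13.1 TPM in replicate 2 and 3.58 TPM in replicate 1, a mean of 8.32 ± 6.70 (SD, n = 2). Slc3a2, which encodes the heavy chain of this and other transporters, stood 11.4-fold above Slc7a11 in replicate 2 and 33.0-fold above it in replicate 1. Coding transcripts held only 8.96% and 9.78% of Slc7a11 TPM, so these ratios do not describe coding RNA alone. Gclc (chromosome 9, 77754535 to 77794485) and Gclm (chromosome 3, 122245557 to 122270732) encode the catalytic and the modifier subunit of glutamate-cysteine ligase, which makes the first step of glutathione synthesis. Gclc stood at 3.86 TPM in replicate 2 and 1.77 TPM in replicate 1, a mean of 2.82 ± 1.48 (SD, n = 2). Gclm stood at 8.24 and 3.32 TPM, a mean of 5.78 ± 3.48 (SD, n = 2), which is 2.13-fold the level of Gclc in replicate 2 and 1.88-fold in replicate 1. The ratio in replicate 2 rested largely on Gclm-205, a 495-base transcript annotated as retained intron, with 60.9% of TPM on 38.6 expected counts. Gclm had fewer counts than Gclc, 307 against 344 in replicate 2 and 199 against 220 in replicate 1, before normalising for length.

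Slc7a11 was the gene with the smallest coding share of the 10. Coding transcripts held 8.96% of its TPM in replicate 2 and 9.78% in replicate 1. The read-based table gave 7.79% and 8.03%. Over the 3277 protein-coding genes that reach 10 TPM in both libraries and have 2 or more transcripts, the median coding share was 74.9% in replicate 2 and 69.2% in replicate 1, and 1.19% of them had a mean share below that of Slc7a11. Slc7a11, at 3.58 TPM in replicate 1, is not itself in that set. The leading transcript of Slc7a11 was Slc7a11-204 in both tables and both libraries, a single exon of 2677 bases annotated as retained intron. It held 69.1% of TPM in replicate 2 and 73.2% in replicate 1, on 616 and 249 expected counts. It starts in the first exon of the gene and runs on into the first intron, with 2056 bases outside all coding exons. Slc7a11-202, also annotated as retained intron, held another 21.9% and 17.0%. The read-based table gave 58.1% and 51.2% for Slc7a11-204 and 34.1% and 40.7% for Slc7a11-202. The order of the libraries was thus turned round for both. The full coding transcript Slc7a11-201 of 9223 bases held 25.7% of expected counts in replicate 2 and 27.99% in replicate 1. The end of the first exon is shown to set the spliced and the retained form side by side, on the minus strand of mm10. Lower case is the shared exon up to base 50442985, and capitals are the second exon in Slc7a11-201 and the intron in Slc7a11-204, whose stretch is chr3:50442955-50443014.
Slc7a11-201: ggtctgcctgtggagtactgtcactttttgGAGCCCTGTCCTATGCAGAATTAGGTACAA
Slc7a11-204: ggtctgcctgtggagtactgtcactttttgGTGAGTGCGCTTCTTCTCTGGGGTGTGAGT
The capitals of Slc7a11-204 open with GT, the usual start of an intron.

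The transcript makeup of the ligase subunits differed between tables or libraries. Gclc lay wholly on the coding Gclc-201 in the alignment-based table, and to 80.8% in replicate 2 and 70.99% in replicate 1 in the read-based table. For Gclm, coding transcripts held 39.1% of TPM in replicate 2 and 90.96% in replicate 1. The difference came with Gclm-205, a retained intron transcript of 495 bases that held 60.9% in replicate 2 and 9.04% in replicate 1. It rested on 38.6 and 3.10 expected counts, 12.6% and 1.56% of the gene's counts. TPM shares of a short transcript thus turned on few reads. Gclm also shares exon bases with Gm17494 on the opposite strand (23 and 35 counts) and with the pseudogene Gm6061 (1 and 0 counts).

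Thioredoxin and peroxiredoxin genes were, after Nfe2l2, the highest of the group. Prdx1 (chromosome 4, 116685544 to 116700822), which encodes a peroxiredoxin that reduces hydrogen peroxide, stood at 134.0 TPM in replicate 2 and 59.2 TPM in replicate 1, a mean of 96.6 ± 52.9 (SD, n = 2). Txnrd1 (chromosome 10, 82833951 to 82897712), which encodes the cytosolic thioredoxin reductase, a selenoprotein, stood at 50.1 and 33.7 TPM, a mean of 41.9 ± 11.6 (SD, n = 2). Srxn1 (chromosome 2, 152105516 to 152111376) encodes sulfiredoxin, which restores over-oxidised peroxiredoxins. It stood at 17.2 TPM in replicate 2 and 7.39 TPM in replicate 1, a mean of 12.3 ± 6.97 (SD, n = 2). Over all transcripts, Txnrd1 stood 1.44-fold above Txn1, the gene of its substrate thioredoxin, in replicate 2 and 1.33-fold above it in replicate 1. Coding transcripts held only 39.4% of Txnrd1 TPM in replicate 2 and 38.7% in replicate 1, so these ratios do not describe coding RNA alone.

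Much of the Txnrd1 signal was likewise assigned to transcripts annotated as retained intron. Its 3 retained intron transcripts together held 60.6% of TPM in replicate 2 and 61.3% in replicate 1. The read-based table gave 65.3% and 66.7%. Txnrd1-202, of 483 bases, led by TPM with 31.2% and 34.7%, but held 4.04% and 4.51% of expected counts. By counts the largest shares in replicate 2 were those of the coding Txnrd1-205 (30.0%) and the retained intron transcript Txnrd1-207 (29.9%). In replicate 1 they were those of Txnrd1-207 (30.3%) and the coding Txnrd1-201 (24.5%). Txnrd1-205 starts farthest upstream, at base 82833951, and Txnrd1-206 at base 82860301. Txnrd1-205 had 853 expected counts in replicate 2 and 370 in replicate 1, and Txnrd1-206 had 257 and 518. After scaling, Txnrd1-205 was 2.64-fold and Txnrd1-206 0.57-fold in replicate 2 over replicate 1, and 1.87-fold and 0.51-fold in the read-based table. These 2 transcripts thus differed in opposite directions in both tables, with no replicate check. The coding Txnrd1-201, which starts at base 82859179, did not keep a direction, at 1.19-fold in the alignment-based table and 0.62-fold in the read-based one. Its level also depended on the table. It held 15.0% of TPM in replicate 2 and 15.4% in replicate 1, on 650 and 624 expected counts. The read-based table gave it 0.35% and 0.59%, on 31.8 and 50.4 estimated counts.

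Prdx1 and Srxn1 were mostly coding. Prdx1-204 led in both tables with 54.1% of TPM in replicate 2 and 60.9% in replicate 1, and held 85.2% and 88.8% of expected counts. In the read-based table it held 34.7% and 30.0% of TPM, with the order of the libraries turned round. The retained intron transcript Prdx1-206 held 10.1% and 23.1% of TPM. Prdx1-205 held 22.6% in replicate 2 and 1.47% in replicate 1, against 4.54% and 6.54% in the read-based table, so this difference also turned round between the tables. Prdx1-206 keeps the bases after the second exon of Prdx1-204. Its boundary is shown as a further example of a retained intron, on the plus strand of mm10, with the shared exon in lower case up to base 116687523 and what follows in capitals. The stretch of Prdx1-206 is chr4:116687494-116687553.
Prdx1-204: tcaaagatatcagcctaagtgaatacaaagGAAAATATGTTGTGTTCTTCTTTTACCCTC
Prdx1-206: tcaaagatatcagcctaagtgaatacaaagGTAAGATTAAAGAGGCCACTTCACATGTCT
Srxn1-201 held 98.96% of the TPM of Srxn1 in replicate 2 and 94.7% in replicate 1.

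Cat (chromosome 2, 103453849 to 103485160), which encodes the peroxisomal enzyme catalase, stood at 38.3 TPM in replicate 2 and 8.10 TPM in replicate 1, a mean of 23.2 ± 21.4 (SD, n = 2). It lay wholly on the coding Cat-201 in both tables. Nqo1 (chromosome 8, 107388225 to 107403206) encodes a quinone reductase that is a classical NRF2 target. It was nearly undetected, at 0.19 TPM on 7 counts in replicate 2 and 0.06 TPM on 3 counts in replicate 1. As CPM these are 0.339 and 0.126, beside a floor of 3 counts, which a gene with 0 counts could still have, of 0.145 and 0.126. The read-based table gave 16 and 8 counts. Nqo1 has 1 annotated transcript, of 1553 bases.

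**Figure D2:**
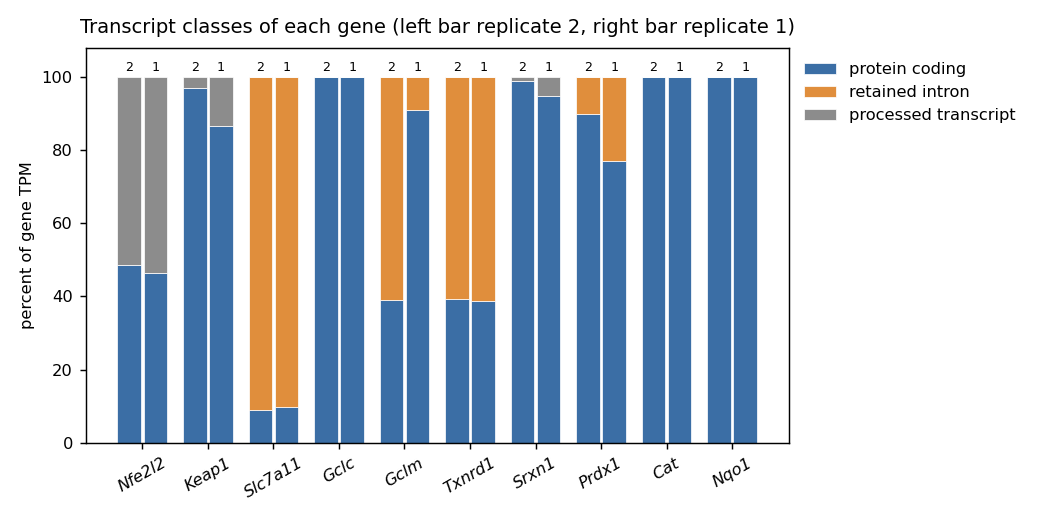
Percent of each gene's TPM on transcripts annotated as protein coding, retained intron or processed transcript, in replicate 2 (left bar) and replicate 1 (right bar). Slc7a11 is mostly on retained intron transcripts in both libraries, Nfe2l2 is split about evenly between its coding and its processed transcript, and Gclm differs between the libraries, with a coding share of 39.1% and 90.96%.

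In all, the 10 genes have 43 annotated transcripts, of which 7 are retained intron and 8 are processed transcripts. Whether reads assigned to these came from such transcripts or from unspliced RNA of the coding ones was not tested. The median coding share over the 10 genes was 93.4% of TPM in replicate 2 and 88.8% in replicate 1. Over the 9 genes with 2 or more transcripts it was 89.9% and 86.6%. The low shares of Slc7a11, Txnrd1 and Nfe2l2, and of Gclm in replicate 2 (39.1%), were thus not general to the group in this table. In the read-based table the median over the 10 genes was lower, 74.2% as a mean of both libraries. Of the 9 genes with 2 or more transcripts, 7 had the same leading transcript in both tables in both libraries. The exceptions were Keap1 and Gclm. The share was 62.9% over 3277 protein-coding genes that reach 10 TPM in both libraries, a level that 4 of the 10 genes reach.

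Most of these genes differed between the replicates in the same direction. Of the 9 genes whose mean count reached 100, 8 had more scaled counts in replicate 2, beside 51.8% of all 9675 such genes and 53.4% of the 8637 that are nuclear and protein-coding. The median log2 ratio of replicate 2 over replicate 1 was 0.82 over the 9 genes and 0.02 over all genes. Beyond 2-fold higher were 3 genes, Cat, Slc7a11 and Srxn1, beside 1.67% of all genes and 1.35% of nuclear protein-coding genes. Beyond 1.5-fold higher were 6, beside 7.93% and 7.7%. No gene of the 9 was beyond 2-fold lower, beside 1.82% and 1.08%, and both directions together held 3.49% and 2.43%. These ratios set 1 library against another and have no replicate check. The genes were also chosen with earlier results of these data known, so the shares beside them are no test. The mitochondrial share and the starting amount of RNA also differed between the libraries, and their part in these ratios was not tested. The 10 macrophage markers had a median log2 ratio of 0.11, with 7 of 10 higher and none beyond 2-fold. Of the 37 markers of other cells, 2 had enough counts for a ratio, the endothelial Kdr at -0.89 and Vwf at -0.71, both lower in replicate 2.

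Cat differed most. It had 2549 counts in replicate 2 and 749 in replicate 1, a log2 ratio of 1.96 (95% Clopper-Pearson interval 1.85 to 2.08), or 3.90-fold, the rank of 18 among 9675 genes from the highest. Slc7a11 had 1144 and 442 counts, a log2 ratio of 1.57 (1.41 to 1.73), or 2.97-fold, at rank 35. Srxn1 had 1231 and 705 counts, a log2 ratio of 1.00 (0.87 to 1.14), which lies on the 2-fold line and was just under it with DESeq2 size factors, with TMM factors from genes whose mean count reached 10 and in the read-based table. The middle 90% of all genes lay between -0.71 and 0.70, so the intervals of these 3 genes lay above it, as did that of Prdx1 (0.72 to 0.85). All intervals cover counting error only.

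The glutathione subunits and Prdx1 came next, at nearly the same ratio. Gclc had 344 counts in replicate 2 and 220 in replicate 1, a log2 ratio of 0.84 (0.59 to 1.09). Gclm had 307 and 199 counts, a log2 ratio of 0.82 (0.56 to 1.09). Prdx1 had 4903 and 3254 counts, a log2 ratio of 0.79 (0.72 to 0.85). Txnrd1, with 2847 and 2548 counts, and Nfe2l2, with 9100 and 8538 counts, were closer between the libraries, at log2 ratios of 0.36 (0.28 to 0.44) and 0.29 (0.25 to 0.33). The median absolute log2 ratio over all genes was 0.26, so the difference of Nfe2l2 was of the usual size. Keap1 was the gene with fewer scaled counts in replicate 2. It had 951 counts there and 1426 in replicate 1, a log2 ratio of -0.39 (-0.51 to -0.27). In the read-based table the ratios were 1.87 for Cat, 1.31 for Slc7a11, 0.97 for Srxn1, 0.87 for Gclc, 0.63 for Prdx1, 0.42 for Gclm and -0.41 for Keap1, with the same 8 genes higher.

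**Figure D3:**
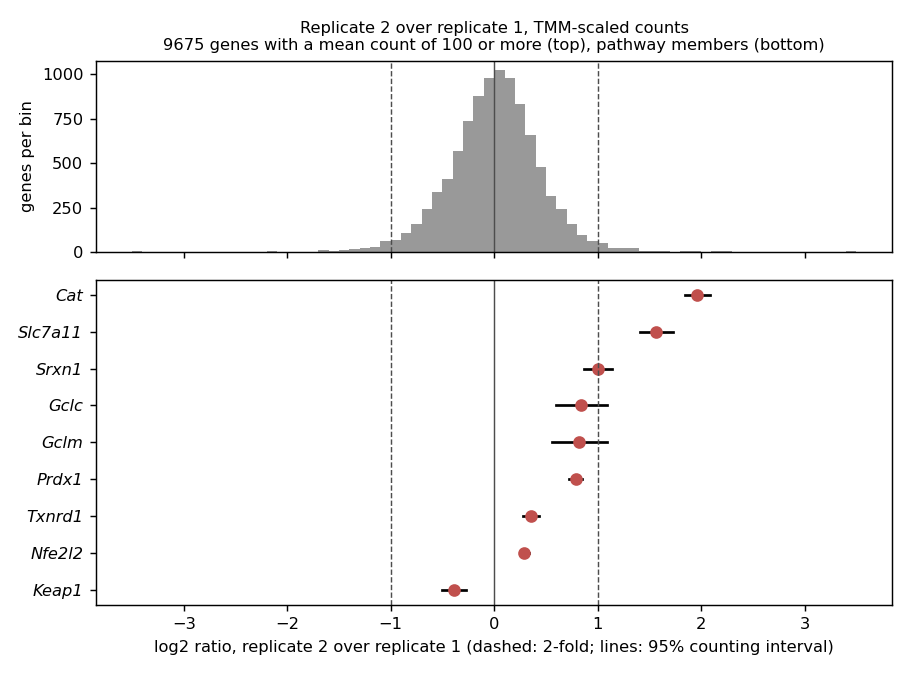
Log2 ratio of TMM-scaled counts, replicate 2 over replicate 1. The upper panel counts, in bins, 9675 genes whose mean count reached 100, with values beyond the axis in the outer bins. The lower panel shows the 9 pathway genes that reach that count, with 95% counting intervals. All but Keap1 lie right of 0, and Cat (1.96) and Slc7a11 (1.57) lie right of the dashed 2-fold line with their whole intervals.

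The promoters of the 10 genes were searched for the core of the antioxidant response element, the site bound by NRF2 with small MAF proteins. The letters searched were TGACNNNGC on both strands, from 250 bases before to 50 after each start. RefSeq windows (GRCm38.p6) matched 9 of the 10 genes, with 11 windows in all. Gclc, 1 of the 8 genes higher in replicate 2, was not among them, and Nqo1, which has no ratio, was. Of these genes 5 held a match: Nfe2l2, Gclm, Txnrd1 in 1 of its 3 windows, Srxn1 and Prdx1. Over all 27025 genes with a window the share was 14%. The 10 genes were chosen as genes of this pathway, so this comparison is no test. Any link of a match to the replicate ratios was not tested. Cat and Slc7a11, with the highest ratios, held none in these windows, nor did Keap1 and Nqo1. The related letters TGANTCA, the site of AP-1 factors, were found in Srxn1 and Prdx1, beside 8.97% of all genes. In Prdx1 the matches of both motifs overlap, at 133 and 131 bases before the start. In Srxn1 the match to TGACNNNGC lies after the start, and TGANTCA occurs 102 and 45 bases before it. The TGANTCA at 45 bases is followed by GC, and differs from TGACNNNGC only by G in place of C after TGA. A match is a description of the letters, and binding was not measured. Prdx1 holds a further TGANTCA 237 bases before the start, which is not shown. The TGACNNNGC matches before a start are shown in capitals within their neighbourhood, on the strand of the gene, and for Srxn1 the capitals mark both TGANTCA matches.
Nfe2l2 (chr2:75704870-75704913, minus strand): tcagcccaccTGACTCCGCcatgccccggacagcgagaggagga
Gclm (chr3:122245398-122245456, plus strand): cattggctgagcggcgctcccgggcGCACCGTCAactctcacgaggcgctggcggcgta
Txnrd1 (chr10:82859089-82859147, plus strand): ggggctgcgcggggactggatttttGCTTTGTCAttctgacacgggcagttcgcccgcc
Prdx1 (chr4:116685441-116685499, plus strand): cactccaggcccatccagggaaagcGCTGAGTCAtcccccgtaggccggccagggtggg
Srxn1 (chr2:152105404-152105503, plus strand): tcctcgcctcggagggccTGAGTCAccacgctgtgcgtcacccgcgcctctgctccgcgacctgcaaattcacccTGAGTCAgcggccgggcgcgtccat
In Gclm, Txnrd1 and Prdx1 the match is on the opposite strand, so the capitals show its reverse complement.

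The rest of the pathway was read from 7 lists of 101 genes. In both libraries 47 of them reached 10 TPM, beside 15.6% of protein-coding genes, and 21 were below 1 TPM in both. The read-based table had 25 of them at 10 TPM or more in both, beside 10% of protein-coding genes. Of the 75 whose mean count reached 100, 49 were higher and 26 lower in replicate 2, with a median log2 ratio of 0.12, beside 51.8% higher and a median of 0.02 over all genes. Beyond 2-fold higher were 2, beside 1.67% of all genes, and beyond 2-fold lower 1, beside 1.82%.

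Of the regulators, 11 of 16 reached 10 TPM in both libraries, beside 15.6% of protein-coding genes. Fewer of them did so by the read-based values, where the share of protein-coding genes was 10%. Sqstm1, which encodes p62, an autophagy receptor that binds KEAP1, led with 375 TPM in replicate 2 and 331 TPM in replicate 1. Nfe2l1, a relative of Nfe2l2, stood at 91.9 and 67.0 TPM, and Ep300, a coactivator, at 38.1 and 34.3 TPM. Bach2, which encodes a repressor of the same family of sites, was lowest at 0.12 and 0.19 TPM. The median log2 ratio of this list was 0.05.

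Glutathione genes were mixed, with 7 of 25 at 10 TPM or more and 10 below 1 TPM in both libraries. Of all protein-coding genes, 15.6% reached 10 TPM in both. Slc3a2 stood at 148 TPM in replicate 2 and 118 TPM in replicate 1, Gpx1, a glutathione peroxidase, at 97.9 and 56.6 TPM, and Glrx, glutaredoxin, at 39.8 and 33.3 TPM. Ggt1 was among 4 genes listed at 0 in both. This list held both genes beyond 2-fold higher. Gstm1, a glutathione transferase of a multigene family and therefore uncertain, had 644 counts in replicate 2 and 338 in replicate 1, a log2 ratio of 1.13 (0.94 to 1.32). Gpx3, the secreted glutathione peroxidase, had 593 and 306 counts, a log2 ratio of 1.15 (0.95 to 1.36).

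Among thioredoxin, peroxiredoxin and dismutase genes 9 of 18 stood at 10 TPM or more, beside 15.6% of protein-coding genes. Sod2, the mitochondrial superoxide dismutase, stood at 159 TPM in replicate 2 and 167 TPM in replicate 1. Prdx5 stood at 66.1 and 64.7 TPM, and Txn1 at 34.8 and 25.4 TPM. Sod3, the extracellular dismutase, was listed at 0. Haem and iron genes included the highest values of all lists, with 8 of 10 at 10 TPM or more. Fth1 and Ftl1, the ferritin chains, stood at 2043 and 1103 TPM in replicate 2 and at 1887 and 955 TPM in replicate 1. Hmox1, which encodes the haem-degrading enzyme haem oxygenase 1, stood at 46.8 and 25.6 TPM, with a log2 ratio of 0.61 (0.51 to 0.72). Abcb6 was lowest, at 1.18 and 0.88 TPM.

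Of the NADPH-forming genes 4 of 8 stood at 10 TPM or more, beside 15.6% of protein-coding genes. Pgd and G6pdx, the dehydrogenases of the pentose phosphate pathway, stood at 46.7 and 28.1 TPM in replicate 2 and at 31.8 and 17.4 TPM in replicate 1. Tkt, transketolase, stood at 18.4 and 14.5 TPM, and Me1, malic enzyme, was lowest at 0.83 and 0.43 TPM. Of the quinone and aldehyde detoxification genes, 8 of 14 reached 1 TPM in both libraries and 1 reached 10 TPM. Over all protein-coding genes the shares were 41.9% and 15.6%. The highest was Abcc3, an export pump, at 23.1 TPM in replicate 2 and 17.3 TPM in replicate 1. Akr1b3, an aldose reductase, stood at 13.7 and 8.74 TPM, Ugdh at 8.61 and 6.05 TPM, and Aldh3a1 had 2 counts in replicate 2 and 0 in replicate 1.

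Genes of the oxidant source, the phagocyte NADPH oxidase and nitric oxide synthase, were high as a list. Of these 10 genes, 7 stood at 10 TPM or more and 3 at 100 TPM or more. Over all protein-coding genes the shares were 15.6% and 1.2%. Cybb, the catalytic subunit of the oxidase, stood at 295 TPM in replicate 2 and 173 TPM in replicate 1. Cyba, its membrane partner, stood at 189 and 129.9 TPM, and Ncf1, a cytosolic subunit, at 163 and 139 TPM. In the read-based table Cyba and Ncf1 were below 100 TPM in replicate 1, at 84.2 and 74.8 TPM. Duox1 was listed at 0. Nos2, the inducible nitric oxide synthase, was the gene beyond 2-fold lower, with 248 counts in replicate 2 and 579 in replicate 1, a log2 ratio of -1.02 (-1.25 to -0.81).

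**Figure D4:**
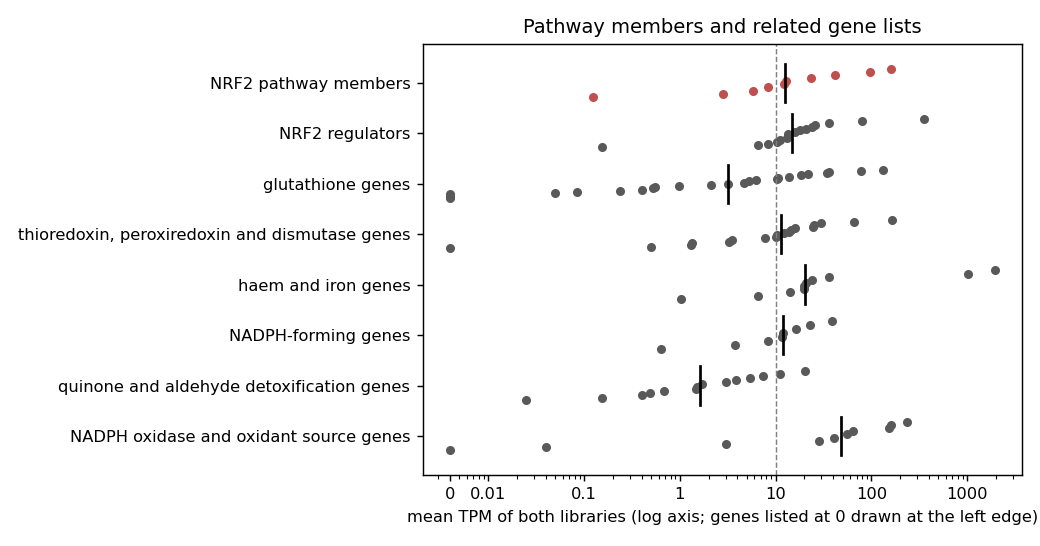
Mean TPM over both libraries of the 10 NRF2 pathway genes (red) and of the genes in 7 related lists (grey), on a log axis with genes listed at 0 at the left edge, black bars at the medians and a dashed line at 10 TPM. The ferritin genes lie farthest right, and the detoxification list lies mostly left of the dashed line, with Abcc3 as its highest gene.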

How the data were processed

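Per the file headers and the notes deposited with them, the gene table and a transcript table of each library were quantified from transcriptome alignments (alignment-based) and a further transcript table from the read files (read-based), on mm10 with GENCODE M21. For aligner, quantification tool, strand setting and trimming, nothing was stated in the labels, notes or headers. Expected counts as deposited are estimates that share ambiguous reads and need not be whole, and were rounded. The deposited TPM values are normalised for effective length. Rows with a plain number in place of a gene ID and rows of spike-ins (0.267% of counts in replicate 2 and 1.10% in replicate 1) were left out, and 55536 gene rows matched the annotation. Read-based values were summed per gene. The labels give separate biosamples of 1 donor entry and do not say if separate animals or cultures gave the replicates, whose spread may then be technical.

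Replicate ratios used TMM factors of edgeR 4.0.16 (1.00 and 0.997 in replicates 2 and 1), a prior count of 0.5 and a minimum mean count of 100, with Clopper-Pearson intervals at 95%. The labels name no molecular identifiers, so reads may not be independent molecules, and intervals and floors describe counting error alone. With 1 group, edgeR's test between groups could not be run. Ratios were tested on simulated counts. Results were recomputed with size factors of DESeq2 1.42.0, by library size, with changed filters, pseudocounts and units, from the read-based table and from each library alone. Besides the 10 genes, named genes were the 3 highest and the lowest of each list by mean TPM and list genes beyond 2-fold. Transcripts were named where they led or held 10% or more of TPM, and a few others after their values were seen. With 2 libraries, genes of like pattern were not sought. Members and lists were chosen with earlier results of these data known. Python 3.11.15, pandas 2.3.3, scipy 1.17.1 and R 4.3.3 were used.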

Additional observations from a re-analysis of the deposited data

How the results depend on the processing

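The number of the 10 genes at 10 TPM or more was 4 in both libraries, and ranged from 4 to 7 with 1 library left out (7 without replicate 1). For the 101 list genes it was 47, against 25 in the read-based table, where the share of all protein-coding genes was also lower (10%, beside 15.6%), and 47 to 55 with 1 library left out. The cause was not tested. The median TPM of the 10 genes was 11.5, and 7.75 to 15.2 with 1 library left out. Genes beyond 2-fold between the replicates numbered 3 on TMM-scaled counts and 3 by library size. They numbered 2 with DESeq2 size factors, with TMM factors from genes whose mean count reached 10 and in the read-based table. Srxn1 was just under 2-fold in these. For ratios of TPM they numbered 6 with 0.1 added and 5 with 1 added. The median log2 ratio was then 1.18 and 1.10 in place of 0.82. On these scales the median of nuclear protein-coding genes was itself 0.27 and 0.24. Cat and Slc7a11 stayed beyond 2-fold in all 6 alternatives of scaling, table or unit, and 8 genes were higher in replicate 2 in each. The median coding share of the 10 genes was 91.1%, against 74.2% in the read-based table and 98.8% of expected counts, since short transcripts weigh less in counts. The same leading transcript was found for 7 of 9 genes, and for 7 to 8 with 1 library left out. No ratio of the 10 genes changed sign in these 6 alternatives. Of 60 such ratios, 18 lay outside the 95% counting interval. Of 20 gene levels read from the read-based table or as posterior mean TPM, 2 moved by more than 1 SD of the libraries, those of Nfe2l2 and Keap1 in the read-based table. Differences between libraries in transcript share turned round between the tables for several transcripts, among them Prdx1-204, Prdx1-205, Slc7a11-204, Slc7a11-202, Keap1-202 and Keap1-205. No paired analysis was possible because there is 1 group. Depth limits Nqo1, on 7 and 3 counts, and the short transcripts Gclm-205 and Keap1-203.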

Other observations

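Genes within the span of the 10 genes gave a few more values. Gm37498, which the annotation classes as TEC, lies on the strand of Slc7a11 and shares no exon bases with it. It had 167 counts in replicate 2 and 73 in replicate 1, a log2 ratio of 1.39, beside 1.57 for Slc7a11. Eid3, a coding gene within Txnrd1 on the same strand, had 827 and 742 counts, a log2 ratio of 0.35, beside 0.36 for Txnrd1.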
